A study of Rattus norvegicus with 24 samples.

Results

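Cultured rat heart muscle cells were given doxorubicin together with mimics of 2 microRNAs, miR-222-3p and miR-455-3p, and their polyA RNA was set against that of doxorubicin-treated cells given a negative control mimic. The libraries were taken by their labels, though the comparison was chosen with earlier results of these data known. They were 3 carrying both mimics under doxorubicin and 3 carrying the control mimic under doxorubicin, 6 of the 24 in the series. All genes of the table were considered. In the series, doxorubicin or no doxorubicin is crossed with the control mimic, either mimic alone, or both, in 8 groups of 3 libraries. All cells were neonatal rat ventricular myocytes from Sprague-Dawley rats, a primary culture that also holds non-muscle cells of the ventricle. Transfection was with Lipofectamine RNAiMax on the day after plating, at 5 nM of each mimic, so that the combination received 5 nM of both. Whether wells with 1 mimic were brought to the same total is not given in the sources used here. Doxorubicin was added 48 h after transfection and RNA was taken 24 h later. The sample protocol gives its dose as 4 uM, while the series text gives the same figure in mM. The 3 libraries of a group are called libraries 1 to 3 after their labels. Nothing in the labels ties a replicate to a separate culture or litter, so the spread between libraries may be technical. The p-values rest on a spread estimated over all 24 libraries, not on that of the 6 compared alone.

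A microRNA guides the Argonaute complex to messenger RNAs that pair with its seed, the bases near its 5′ end, and paired messages are translated less and often decay. miR-222 lies with miR-221 in a pair on the X chromosome and is known in heart muscle for its rise with exercise and for acting on cell cycle inhibitors. miR-455 is encoded within a collagen gene and is known from cartilage, brown fat and muscle. Doxorubicin is an anthracycline that poisons topoisomerase II and damages mitochondria, and injury to heart muscle limits its use in cancer. The series text states the aim of asking whether the pair of microRNAs protects such cells jointly.

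The mature rat sequences are shown because the mimics carry the names of these 2 microRNAs. They come from RefSeq on build GRCr8, 5′ to 3′, with the seed, bases 2 to 8, in capitals.
rno-miR-222-3p: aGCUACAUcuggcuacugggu
rno-miR-455-3p: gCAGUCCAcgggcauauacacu
The first, 21 bases long, lies at chrX:6022682-6022702 on the plus strand, and the second, 22 bases long, at chr5:81704881-81704902, also on the plus strand. Their seeds differ, so the perfect 7-base match in a message is AUGUAGC for miR-222-3p and UGGACUG for miR-455-3p. PolyA libraries do not measure mature microRNAs, so delivery of the mimics was not checked here, and matches in 3′ ends of messages were not analysed here.

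Totals over the 24 libraries ran from 17311955 to 25750311 counts, and both extremes fell among the 6 libraries compared here. Library 1 of the control mimic held the fewest genes with at least 10 counts, 11469, and library 2 of the combination the next fewest, 12289, where the other 4 held 12720 to 13524. Mitochondrially encoded transcripts took 13.1%, 21.3% and 20.2% of counts in the combination and 38.2%, 8.83% and 16.0% with the control mimic. In the 3 pairs of replicates of each group, a chi-square of counts over genes gave 125 to 355 per degree of freedom in the combination and 125 to 562 in the controls. With miR-455 alone under doxorubicin it was 7.81 to 9.79, and with miR-222 alone 51.4 to 90.5. Wide spread was also found without doxorubicin, up to 127 with miR-222, 224 with miR-455, 346 in controls and 575 with both. Results that lean on library 1 of the controls or library 2 of the combination are therefore also given without them. The cells bore the markers of heart muscle: 24 sarcomere genes summed to 32608 to 84856 CPM (each library's counts scaled to its TMM-normalised total) in the combination and 47125 to 51104 CPM in the controls. Of 14 leukocyte markers, 9 passed the filter on low counts and summed to 16.99 to 26.2 CPM against 20.9 to 27.3 CPM, while Ptprc, Adgre1, Cd163 and Cd3e did not pass it.

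With both mimics, 397 genes were higher and 397 lower than with the control mimic under doxorubicin, of 14303 tested (edgeR quasi-likelihood test, Benjamini-Hochberg adjusted p under 0.05). This was 5.55% of genes called, 2.78% in each direction. At least a 2-fold change was fitted for 278 of the higher and 304 of the lower genes, and the median log2 fold change over all tested genes was -0.06. The 10 most lowered genes under the naming rule were Dkk3, Thy1, Paqr6, Gca, Ptn, Ampd3, Hccs, Sh3bgrl, Ackr4 and Mpc2, and the 10 most raised were Pcsk1, Asb12, Kcnv2, Mstn, Palmd, Med30, Alox15, Lrrc4b, Scml2 and Nr1h4. That rule takes called genes with a symbol that reach 5 CPM in the higher group and whose groups do not overlap, so the separation of the groups in these 20 genes was fixed by the choice. In 756 of the 794 called genes the 3 libraries of one group lay wholly above those of the other, as they did in 2553 of all 14303 genes (17.8%).

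The calls rest on a spread estimated over all 8 groups. A fit of the 6 libraries alone called 2 of 12996 genes, Dkk3 (adjusted p = 0.0323, edgeR) and the unnamed RGD1310352 (adjusted p = 0.0470), with 1365 genes at an unadjusted p under 0.05. In fits that left out 1 of the 6 libraries the count lay between 463, without control library 2, and 1180, without combination library 1, and it was 509 without combination library 3. Of the 794 genes, 330 (148 higher, 182 lower) stayed called in the same direction in each of these 6 fits. Without control library 1 and combination library 2 together, 242 genes were higher and 313 lower, 3.81% of 14567, and 434 of the 794 remained called.

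**Figure D1:**
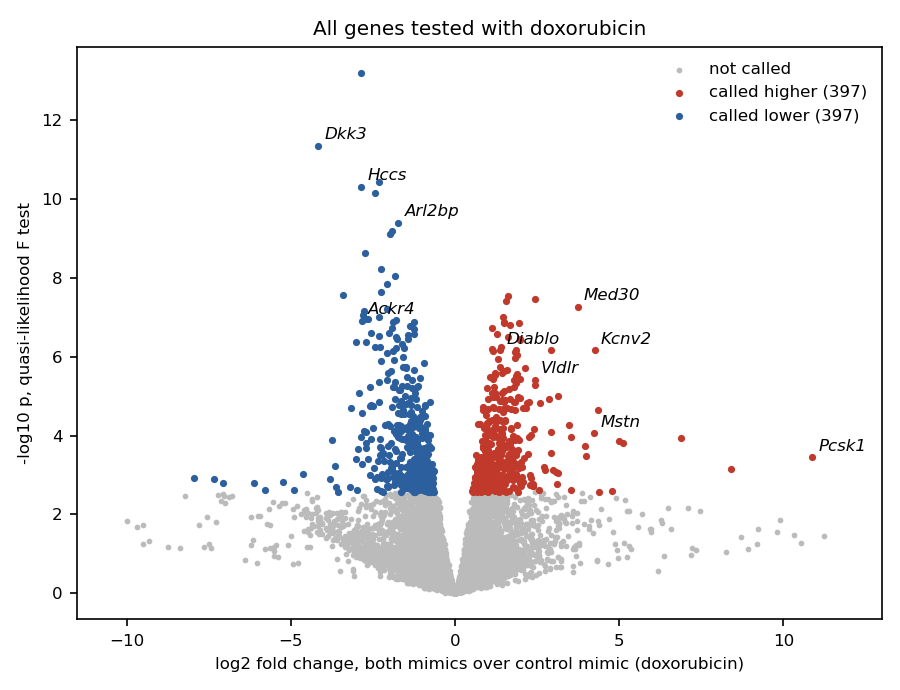
Log2 fold change of both mimics against the control mimic under doxorubicin (x axis) and -log10 of the unadjusted p (y axis) for 14303 genes; coloured points are the 397 higher and 397 lower genes called. Dkk3, Hccs and Arl2bp stand high on the lower side, and Pcsk1, at 0 in all 3 controls, lies farthest right among the labelled genes.

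Dkk3, a secreted glycoprotein of the Dickkopf family, changed most among the lowered genes with a symbol that met the naming rule. Its level was 42.5, 24.9 and 40.0 CPM in the combination libraries against 556, 676 and 697 CPM in the controls. The log2 fold change was -4.17 ± 0.29 (n = 3 against 3, edgeR adjusted p = 3.1e-08). Here and below, ± gives the SE from the fit of all 24 libraries. The fit of the 6 libraries alone gave -4.12 ± 0.34 for Dkk3. Every combination library lay more than an order of magnitude below every control library. Hccs encodes the lyase that attaches heme to cytochrome c. It stood at 12.1, 13.1 and 10.1 CPM against 108, 68.7 and 80.5 CPM (-2.87 ± 0.23, edgeR adjusted p = 1.7e-07). Mpc2, a subunit of the carrier that brings pyruvate into mitochondria, was at 11.97, 5.97 and 5.45 CPM against 43.4, 45.2 and 77.3 CPM (-2.82 ± 0.52, edgeR adjusted p = 0.00217). Ackr4, an atypical chemokine receptor that scavenges its ligands, measured 6.58, 3.67 and 3.75 CPM against 31.3, 34.999 and 33.8 CPM (-2.83 ± 0.36, edgeR adjusted p = 6.3e-05), with controls close together. All 4 genes kept their call in each of the 6 fits without 1 library.

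Among the other lowered genes, spread between the controls was wider. Thy1, a surface protein of fibroblasts, measured 7.44, 4.603 and 2.58 CPM against 15.1, 76.3 and 40.9 CPM, a log2 fold change of -3.17 ± 0.57. The heparin-binding growth factor Ptn (pleiotrophin) read 20.6, 22.6 and 32.6 CPM against 199, 267 and 116 CPM, a change of -2.94 ± 0.65. The control libraries of both genes lay far apart. Gca, the calcium-binding protein grancalcin, was at 3.38, 4.11 and 5.92 CPM against 60.2, 22.01 and 27.2 CPM (-3.03 ± 0.41). Ampd3, an AMP deaminase, was nearly level at 5.13, 5.10 and 5.10 CPM in the combination and uneven at 61.6, 11.96 and 42.3 CPM in the controls (-2.91 ± 0.49). Sh3bgrl was at 6.75, 12.5 and 8.90 CPM against 109, 57.4 and 37.7 CPM (-2.86 ± 0.59). These 5 genes also kept their call in all 6 fits, with edgeR adjusted p between 1.2e-04 for Gca and 0.00911 for Ptn, although Ptn missed the threshold without both doubted libraries (adjusted p = 0.0676). Paqr6, of the progestin and adipoQ receptor family, fell by 3.03 ± 0.71 on the log2 scale (edgeR adjusted p = 0.0139) and was no longer called without combination library 2, combination library 3 or control library 2 (adjusted p = 0.0755, 0.0721 and 0.0643).

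**Figure D2:**
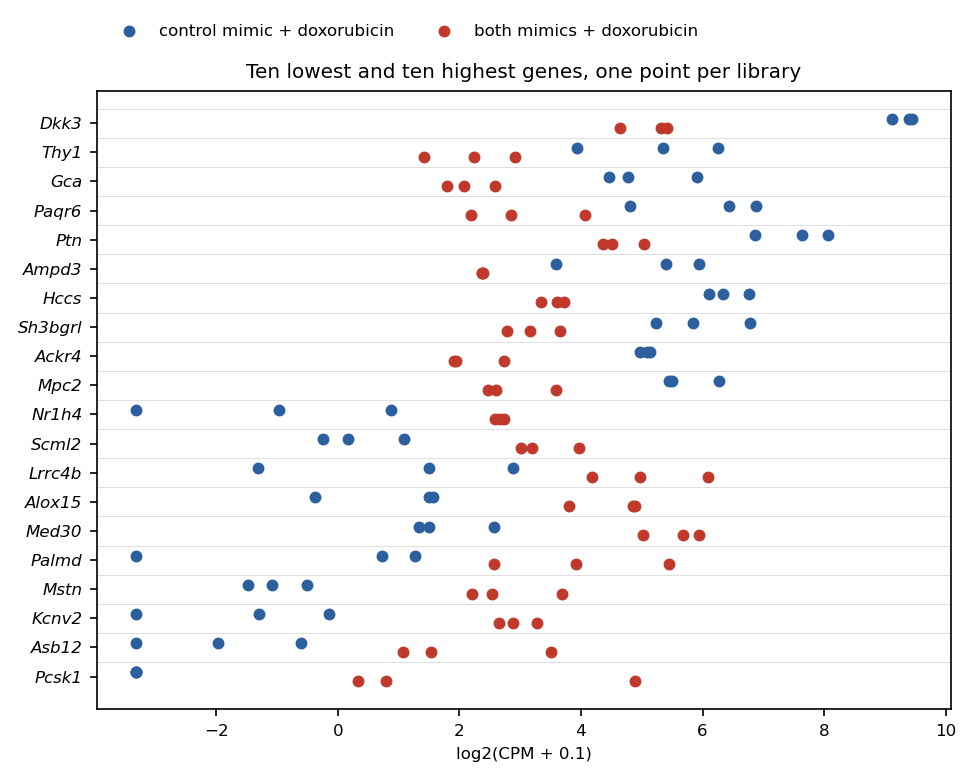
Level of the 10 most lowered and 10 most raised genes under the naming rule, as log2(CPM + 0.1), in each of the 3 libraries with both mimics and the 3 with the control mimic, all under doxorubicin; each point is 1 library. The rule admits only genes whose groups do not overlap. Among the raised genes, combination library 2 is the highest of its group in Pcsk1, Palmd, Asb12, Mstn, Lrrc4b, Scml2, Kcnv2 and Nr1h4. It is not the highest in Med30 or Alox15.

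On the raised side, Med30, a subunit of the Mediator complex that links transcription factors to RNA polymerase II, measured 32.4, 51.2 and 61.3 CPM in the combination against 5.85, 2.42 and 2.74 CPM in the controls (3.74 ± 0.44, edgeR adjusted p = 4.2e-05). Kcnv2, a silent subunit of voltage-gated potassium channels, stood at 6.15, 9.58 and 7.26 CPM against 0, 0.309 and 0.809 CPM (4.25 ± 0.60, edgeR adjusted p = 1.6e-04). Kcnv2 had no counts in control library 1. Mstn (myostatin), a secreted inhibitor of muscle growth, read 4.53, 12.8 and 5.68 CPM against 0.606, 0.258 and 0.373 CPM (4.24 ± 0.87). Alox15, a lipoxygenase, read 28.8, 13.9 and 29.7 CPM against 2.73, 0.670 and 2.86 CPM (3.55 ± 0.74), and Scml2, a Polycomb group protein, 7.99, 15.5 and 9.08 CPM against 2.02, 1.03 and 0.746 CPM (3.12 ± 0.53). Lrrc4b, a synaptic adhesion protein, was at 31.5, 68.0 and 18.0 CPM against 0.303, 7.27 and 2.74 CPM (3.46 ± 0.68), and without both doubted libraries its change was 2.30. These 6 genes passed in all 6 fits without 1 library.

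The remaining raised genes leaned on few libraries. Pcsk1, a protease that processes prohormones, was at 1.15, 29.5 and 1.64 CPM in the combination and at 0 in all 3 controls. Against a floor of 3 counts over the control group it was at least 163-fold higher, and at least 21.1-fold higher without combination library 2. Its edgeR adjusted p was 0.0132, then 0.0623 without that library and 0.0588 without control library 2. Palmd (palmdelphin) measured 5.81, 43.4 and 14.997 CPM against 0, 2.32 and 1.55 CPM (3.96 ± 0.87, edgeR adjusted p = 0.00824), and 0.0538 was its adjusted p without combination library 2. Asb12, an adaptor of a ubiquitin ligase, was at 2.01, 11.3 and 2.81 CPM against 0, 0.155 and 0.560 CPM (4.36 ± 0.79) and passed in all 6 fits, though its change was 2.77 without both doubted libraries. Nr1h4, the bile acid receptor FXR, was level in the combination at 5.90, 6.59 and 6.27 CPM against 0, 0.412 and 1.74 CPM (3.06 ± 0.78, edgeR adjusted p = 0.0232), with adjusted p = 0.0512 without combination library 3 and 0.111 without control library 2, and a change of 4.67 without control library 3.

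The combination was next set against each mimic alone under doxorubicin, which asks what the second microRNA added. Against miR-222 alone, 0 genes were higher and 23 lower (0.161% of 14303, edgeR; 1527 genes at an unadjusted p under 0.05). DESeq2 called 54 higher and 87 lower in that comparison, and limma with quality weights 1117 and 1121, so the one-sided split was not shared by those tests. Against miR-455 alone, 355 genes were called (2.48%), 133 lower and the others higher. Leaving out 1 library gave between 3 (without miR-222 library 3) and 38 (without combination library 1) calls against miR-222: 11 and 5 without miR-222 libraries 1 and 2, 6 and 5 without combination libraries 2 and 3. Against miR-455 it gave 118, 108 and 108 without miR-455 libraries 1 to 3, and 1039, 158 and 196 without combination libraries 1 to 3. The excess of higher genes was not kept without miR-455 library 1 (58 higher and 60 lower), 2 (52 and 56) or 3 (48 and 60) or combination library 2 (78 and 80). The changes of the combination and of each single mimic from the control mimic rest on the same control libraries. Those changes are therefore set side by side only. The tests of the combination against each single mimic do not compare with these controls. Which of the genes under the naming rule are described next was chosen after their values were seen.

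Several of the lowered genes sat at the level of 1 single mimic. Ackr4 measured 6.38, 6.00 and 4.76 CPM with miR-222 alone and 37.7, 36.6 and 35.6 CPM with miR-455 alone, and the combination overlapped the first and lay below the second (log2 fold change -2.97 ± 0.36, edgeR adjusted p = 1.4e-04). Hccs read 10.3, 8.89 and 10.4 CPM with miR-222 and 44.4, 46.7 and 41.2 CPM with miR-455. The combination was below miR-455 alone (-1.91 ± 0.22, edgeR adjusted p = 1.0e-04) and did not pass the test against miR-222 (0.25 ± 0.21). Ccnd1 encodes cyclin D1, which drives cells through G1. It was at 176, 106 and 131 CPM in the combination against 386, 505 and 505 CPM in the controls (-1.76 ± 0.24, edgeR adjusted p = 1.1e-04), with 250.4, 188 and 176 CPM for miR-222 alone and 526, 497 and 532 CPM for miR-455 alone. The miR-455 libraries thus overlapped the controls, while those of miR-222 lay below them. Irf7, a transcription factor of the interferon response, read 14.7, 8.09 and 13.8 CPM against 35.7, 36.3 and 42.0 CPM (-1.64 ± 0.32, edgeR adjusted p = 0.00386), and 13.2, 13.9 and 12.6 CPM with miR-222 against 39.8, 37.2 and 43.3 CPM with miR-455. Its levels formed a low pair of groups, combination and miR-222, and a high pair, control and miR-455.

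Mpc2 and Arpc1a followed the other mimic. Mpc2 measured 47.4, 76.8 and 69.4 CPM with miR-222 alone and 12.9, 16.0 and 12.4 CPM with miR-455 alone, and the combination was below miR-222 (-3.04 ± 0.53, edgeR adjusted p = 0.0209). Arpc1a, a subunit of the Arp2/3 complex that branches actin filaments, was at 55.2, 33.6 and 43.9 CPM in the combination and 163, 183 and 208 CPM in the controls (-2.06 ± 0.25, edgeR adjusted p = 4.6e-05). It read 165, 178 and 178 CPM with miR-222 and 53.1, 61.1 and 59.9 CPM with miR-455. In both genes the miR-222 libraries stood among or near the controls and the miR-455 libraries near the combination. Of the 23 genes lower than with miR-222 alone, the other 3 named by rule were Kcnh2, the pore of the rapid delayed rectifier potassium channel (-2.58 ± 0.45, edgeR adjusted p = 0.0220), mrpl9, a mitochondrial ribosomal protein (-2.39 ± 0.48, 0.0472), and Coq2, an enzyme of coenzyme Q synthesis (-1.98 ± 0.38, 0.0331). Against miR-455 alone, keratin Krt7 (-3.42 ± 0.48), the urea transporter Slc14a1 (-2.93 ± 0.55), the chromatin protein Hmga2 (-2.86 ± 0.71) and Mrpl36 (-2.76 ± 0.38) were the lowest beside Ackr4. The highest were Mstn (5.75 ± 0.94), Palmd (4.18 ± 0.88), Igfbp5, a binding protein of insulin-like growth factors (3.18 ± 0.53), the glutamate transporter Slc1a1 (3.09 ± 0.81) and Gucy1a1, a subunit of the nitric oxide receptor (2.96 ± 0.65). Mstn and Palmd read highest in combination library 2. Changes of single genes without that library are not given for this comparison.

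Dkk3 was lower with both mimics than with either alone. It measured 126, 109 and 129 CPM with miR-222 and 186, 196 and 205 CPM with miR-455, and the combination lay below the first (log2 fold change -1.76 ± 0.26, edgeR adjusted p = 0.00659) and below the second (-2.45 ± 0.27, 6.0e-05). The combined change differed from the sum of the 2 single log2 changes by -0.05 ± 0.36 (edgeR adjusted p = 0.965). Over all genes, 5 lay above that sum and 1 below it (0.0419% called). Gca overlapped the combination with either mimic alone, at 3.12, 4.39 and 3.54 CPM and 5.13, 4.54 and 4.08 CPM, and lay above the sum by 3.27 ± 0.56 (edgeR adjusted p = 0.0288). Vnn1, a pantetheinase, measured 73.5, 90.6 and 85.6 CPM with both, 83.0, 59.5 and 70.2 CPM with miR-222, 60.6, 63.6 and 57.3 CPM with miR-455 and 232, 259 and 195 CPM in controls, above the sum by 2.15 ± 0.33 (edgeR adjusted p = 0.0173). In these 2 genes all mimic groups lay below every control. Bckdk, the kinase that switches off breakdown of branched-chain amino acids, stood between: 136, 143 and 141 CPM with both, 221, 226 and 226 CPM with miR-222, 66.8, 64.8 and 62.3 CPM with miR-455 and 237, 238 and 241 CPM in controls. None of these 4 groups overlapped, and the combination was lower than miR-222 alone (-0.68 ± 0.13, edgeR adjusted p = 0.0427) and higher than miR-455 alone (1.11 ± 0.14, 1.4e-04). The count of 6 genes off the sum became 0 (edgeR) when miR-222 library 2 or 3, any 1 miR-455 library, or combination library 2 or 3 was left out, with 901 to 1426 genes at an unadjusted p under 0.05. It was 2 without miR-222 library 1, 24 without combination library 1, 4 without control library 1, 10 without control library 2 and 14 without control library 3.

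**Figure D3:**
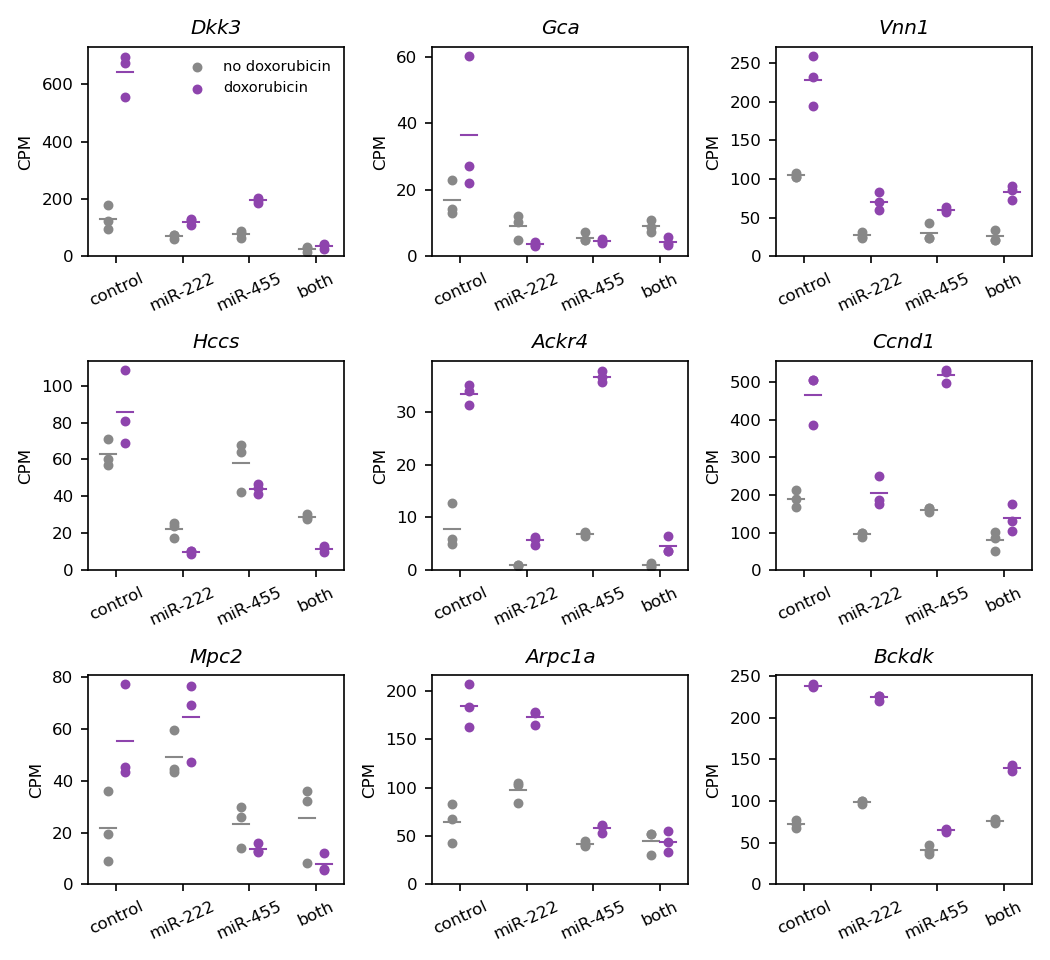
CPM of 9 genes in the 8 groups of the series; points are libraries and lines are means of 3. Under doxorubicin, Ackr4, Hccs and Ccnd1 are low with miR-222 and with both, Mpc2 and Arpc1a with miR-455 and with both, and Dkk3 is lowest with both.

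Gene lists were then described by their counts and their median log2 fold change, beside a median of -0.06 and 2.78% called each way over all genes. The fibroblast and matrix markers moved most among the cell type lists: 5 of 23 fell and 0 rose, with a median of -0.78 (edgeR; 11 lower and 1 higher at an unadjusted p under 0.05, 8 lower by DESeq2). Beside Thy1 these were the collagen VI chains Col6a2 (-1.93 ± 0.35) and Col6a1 (-1.69 ± 0.28), the metalloproteinase inhibitor Timp1 (-1.57 ± 0.23) and the matrix glycoprotein Sparc (-0.99 ± 0.21), which lies outside the naming rule. All 5 kept their call in each fit without 1 library, and the count was 5 of 23 with a median of -0.91 without both doubted libraries. Summed over the list, the combination held 34344 to 48059 CPM and the controls 47235 to 91455 CPM, ranges that overlap at their edges. Fewer cells of a type and less RNA per cell cannot be told apart in bulk samples. Among 9 endothelial markers, Kdr, the main receptor of VEGF, was lower (-2.82 ± 0.68, edgeR adjusted p = 0.0171; 0.0848 without combination library 3 and 0.0604 without control library 1, with a change of -4.62 without combination library 2) and the sum was 121 to 226 CPM against 180 to 293 CPM. Cdh5, which defines these cells, was at 0.0427, 0 and 0 CPM and 0, 0.773 and 0.435 CPM. Of 10 smooth muscle and pericyte markers and 9 leukocyte markers, 0 passed by edgeR or DESeq2 (unadjusted p under 0.05 for 3 and 0). The mural sum was 4236 to 7960 CPM against 5068 to 8598 CPM. What part cell composition has in the lowered genes was not tested.

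Few heart muscle genes passed the test. Of 24 sarcomere genes 1 fell, Ldb3 of the Z-disc (-1.41 ± 0.26, edgeR adjusted p = 0.00229); the median was -0.27, and without both doubted libraries 3 were lower with a median of -0.73. Nppa, the atrial natriuretic peptide and a sign of stress in ventricular cells, read 12774, 6142 and 9464 CPM against 19769, 24763 and 31704 CPM. The groups did not overlap, but the change of -1.43 ± 0.48 did not pass (edgeR adjusted p = 0.0882), nor did that of Myh7, the slow myosin heavy chain, at 922, 1535 and 869 CPM against 4689, 2745 and 3783 CPM (-1.75 ± 0.52, 0.0539). Against miR-455 alone Nppa was lower (-2.04 ± 0.49, edgeR adjusted p = 0.0281). Nppb (-0.34 ± 0.36) and Myh6 (0.63 ± 0.36) did not pass either. Of 14 stress genes and 18 cardiac transcription factors 0 passed by edgeR, with medians of -0.20 and 0.08 (unadjusted p under 0.05 for 3 and 0 genes, DESeq2 calls for 2 and 0), and the medians were -0.76 and -0.40 with 1 lower gene in each list without both doubted libraries. Among 27 genes of calcium handling and ion channels Gja1 was lower, connexin 43 of the gap junctions, at 74.0, 97.5 and 93.4 CPM against 489, 222.4 and 301 CPM (-1.93 ± 0.42, edgeR adjusted p = 0.00721; 0.0744 without both doubted libraries). The median of that list was -0.18, and -0.67 without both doubted libraries. Of 22 immediate early genes, 18 had negative changes with a median of -0.53 (-0.79 with 0 called by edgeR without both doubted libraries), and Egr2 was called (-1.91 ± 0.47, edgeR adjusted p = 0.0192; 0.0812, 0.0861 and 0.0764 without combination library 2, combination library 3 or control library 2).

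Targets of p53, the main transcription factor of the DNA damage response, were called singly in the list for arrest and in both directions in the list for death. Of 19 p53 targets for arrest and feedback 1 was called, Ccng1 (cyclin G1, 1.23 ± 0.32, edgeR adjusted p = 0.0282; 0.203, 0.136 and 0.106 without combination library 2, control library 2 or control library 3, with a change of 0.77 in the first). Without both doubted libraries 1 of the 19 was higher and 1 lower. Cdkn1a, the p21 inhibitor of cyclin-dependent kinases, changed by -0.47 ± 0.57 and Mdm2, the ligase that degrades p53, by 0.14 ± 0.44, neither past the test. Of 10 p53 targets that promote death, 3 fell and 1 rose. Pmaip1, the BH3-only protein NOXA, fell by 1.03 ± 0.29 (edgeR adjusted p = 0.0401), Perp by 1.11 ± 0.26 and Ei24 by 0.67 ± 0.17, while the receptor Tnfrsf1a was higher by 0.70 ± 0.17; without both doubted libraries 1 of the 10 was called, lower. Pmaip1 was no longer called without combination libraries 1 or 3 or control libraries 1 or 2 (adjusted p = 0.0917, 0.133, 0.146 and 0.0917), Perp without control library 2 (0.0547), and Tnfrsf1a without combination library 3 or control library 2 (0.0692 and 0.0840). In the BCL2 and caspase list of 22 genes, Diablo was the 1 called. This mitochondrial protein, which unleashes caspases once released, was at 78.3, 99.2 and 73.3 CPM against 26.5, 36.0 and 34.8 CPM, a rise of 1.36 ± 0.19 (edgeR adjusted p = 1.6e-04) that held in all 6 fits.

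Cell cycle calls were 2 cyclins of the D type, lower, and 2 mitosis genes, higher. Beside Ccnd1, Ccnd2 fell (-0.86 ± 0.17, edgeR adjusted p = 0.00351; 0.0600 without both doubted libraries) among 17 G1 regulators, and Cdkn1b, the p27 inhibitor and a reported miR-222 target, changed by 0.00 ± 0.34. Of 27 mitosis genes Cdk1 (2.38 ± 0.67) and Tpx2 (1.5001 ± 0.40) were called higher, with a list median of 0.33. Both rested on combination library 2: without it their changes were 0.90 and 0.94 (edgeR adjusted p = 0.470 and 0.215), and without both doubted libraries 0 of 27 were called with a median of -0.28. Neither was called without control library 1 (adjusted p = 0.0934 and 0.0626), control library 2 (0.147 and 0.0961) or control library 3 (0.0506 and 0.0798). Of 27 replication genes and 27 repair genes 0 passed by edgeR (unadjusted p under 0.05 for 3 and 5, DESeq2 calls for 0 and 1), with medians of -0.04 and 0.32.

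In the list for endoplasmic reticulum stress and ATF4, 4 of 24 genes were higher and 1 lower, 18 of 24 changes were positive and the median was 0.49. Without both doubted libraries 3 were higher and 1 lower, with a median of 0.47. Vldlr, the very low density lipoprotein receptor, measured 120.1, 289 and 154 CPM against 41.6, 26.4 and 37.3 CPM (2.42 ± 0.38, edgeR adjusted p = 5.7e-04). Hspa5, the chaperone BiP, read 804, 2065 and 1069 CPM against 530.3, 348 and 354 CPM (1.68 ± 0.36, edgeR adjusted p = 0.00768), and without combination library 2, its highest, 1.19 (adjusted p = 0.0649). The others were Canx (calnexin, 0.87 ± 0.23), which lies outside the naming rule and was lost without combination library 2 or 3 or control library 2 or 3 (adjusted p = 0.111, 0.0918, 0.101 and 0.133), and Atf6, a sensor of misfolded proteins (0.73 ± 0.19, edgeR adjusted p = 0.0216; 0.137, 0.0513 and 0.102 without combination library 2, control library 2 or control library 3). Pdia6, a disulfide isomerase of the same compartment, went the other way at 192, 117 and 159 CPM against 395, 839 and 483 CPM (-1.88 ± 0.27, edgeR adjusted p = 1.6e-04). In the proteasome 2 of 25 subunits were higher and 1 lower. Psmb2 was clear of its controls at 85.5, 95.6 and 124 CPM against 51.9, 30.7 and 41.7 CPM (1.29 ± 0.19, edgeR adjusted p = 2.4e-04), whereas Psmb7 (0.77 ± 0.21) was lost without any 1 library but combination library 1 (adjusted p from 0.0519 to 0.170). Psmb4 (-1.05 ± 0.28) was lost without combination library 2 or 3 or control library 2 or 3 (adjusted p from 0.112 to 0.132). Of 16 heat shock genes Hsp90ab1 was higher (0.65 ± 0.18) and Hsf1 lower (-0.98 ± 0.28), both lost without any of those same 4 libraries (adjusted p from 0.0848 to 0.121 and from 0.149 to 0.164). Of 32 autophagy and lysosome genes the protease Ctsb was called, lower (-0.69 ± 0.20, edgeR adjusted p = 0.0439), and was lost without any 1 library but control library 3 (from 0.0790 to 0.106).

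Genes of metabolism and iron moved singly. In the nuclear respiratory chain list of 32, Ndufv2, which carries an iron-sulfur cluster of complex I, rose to 492, 699 and 612 CPM from 234, 96.4 and 164 CPM (1.87 ± 0.30, edgeR adjusted p = 6.6e-04), and Sdhd, the membrane anchor of complex II, fell to 244, 181 and 207 CPM from 591, 428 and 696 CPM (-1.44 ± 0.25, edgeR adjusted p = 0.00147). All 13 mitochondrially encoded messages had negative changes, with a median of -0.86, and 0 passed by edgeR or DESeq2 (1 at an unadjusted p under 0.05). Without both doubted libraries that median was 0.29, and the control library with 38.2% of such counts was among those left out. Of 30 fatty acid oxidation genes Decr1 (-0.84 ± 0.20) and Etfa (-0.85 ± 0.20) were called lower, but 0 without both doubted libraries; Decr1 missed the threshold without combination library 3 (edgeR adjusted p = 0.0569), and Etfa without combination library 2 or control library 1 (0.0664 and 0.0639). Hk1, a hexokinase, was lower (-1.08 ± 0.21) among 23 glycolysis genes. Scd2, a stearoyl-CoA desaturase, was the 1 called of 20 sterol and lipid synthesis genes, at 164, 136 and 129 CPM against 590.1, 829 and 719 CPM (-2.32 ± 0.29, edgeR adjusted p = 6.2e-05). Of 15 citric acid cycle genes, 15 hypoxia genes and 24 ribosomal proteins 0 passed by edgeR (unadjusted p under 0.05 for 5, 4 and 1, DESeq2 calls for 2, 2 and 0), with medians of -0.11, 0.05 and -0.18. Without both doubted libraries the first of these medians was 0.10 and the second -0.25, so both changed sign, and the third was -0.11.

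In the iron and ferroptosis list 4 of 19 rose and 1 fell, with a median of 0.05. Acsl4 loads membrane lipids with the fatty acids that oxidise in ferroptosis. It was at 73.3, 199 and 115 CPM against 39.1, 28.0 and 21.6 CPM (2.13 ± 0.32, edgeR adjusted p = 3.6e-04). Fech, which inserts iron into heme, was at 110.0, 140.2 and 129.9 CPM against 56.3, 49.1 and 42.9 CPM (1.36 ± 0.28, edgeR adjusted p = 0.00590). Neither overlapped its controls, and both kept their call in all 6 fits. The iron exporter Slc40a1 (ferroportin, 1.41 ± 0.37) and the regulator Ireb2 (0.66 ± 0.16) were higher, and the importer Slc11a2 lower (-1.23 ± 0.27). Slc40a1, outside the naming rule, missed the threshold without combination library 3, control library 2 or control library 3 (edgeR adjusted p = 0.0870, 0.132 and 0.0898). Ireb2 missed the threshold without combination libraries 2 or 3 or control library 1 (edgeR adjusted p = 0.0522, 0.0575 and 0.0523), and Slc11a2 without combination library 3 or control library 2 (0.0570 and 0.0513). Of 21 NRF2 antioxidant genes Me1 was higher (0.86 ± 0.19) and thioredoxin Txn1 lower (-0.86 ± 0.21); Me1 missed the threshold without control library 2 (edgeR adjusted p = 0.0571) and Txn1 without combination libraries 1 or 2 or control library 1 (0.0529, 0.0819 and 0.0654). Of 13 genes that bind, export or detoxify doxorubicin 0 passed by edgeR (6 at an unadjusted p under 0.05, 1 by DESeq2), with a median of -0.16.

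Inflammatory genes and reported targets completed the lists. Irf7 was the 1 interferon-stimulated gene called of 32, whose median was -0.27 (-0.07 without both doubted libraries). Among 18 NF-kB targets Tnfaip3, the feedback inhibitor A20, was called lower (-1.22 ± 0.36, edgeR adjusted p = 0.0489), but in 0 of the 6 fits without 1 library (adjusted p from 0.0584 to 0.176); the median was -0.64 and 15 of 18 were negative, and without both doubted libraries the median was -0.51. Of 20 reported miR-222 targets 15 were negative, with a median of -0.29, and 1 was called: Hmbox1, a homeobox protein, at 2.18, 1.12 and 2.23 CPM against 14.5, 3.61 and 3.79 CPM (-1.97 ± 0.47, edgeR adjusted p = 0.0159). Its control library 1 was far above the other controls, and without it the change was -0.999 (adjusted p = 0.105), while leaving out combination library 2 gave 0.0789 for the adjusted p. Hipk1, a kinase reported as a miR-222 target in heart, read 63.3, 67.2 and 65.4 CPM against 80.8, 93.5 and 96.6 CPM; the groups did not overlap, but -0.47 ± 0.15 did not pass (edgeR adjusted p = 0.0795). Of 17 reported miR-455 targets, with a median of -0.23, Ei24 was lower at 80.1, 126 and 93.0 CPM against 179, 155 and 142 CPM (-0.67 ± 0.17, edgeR adjusted p = 0.0214) and Runx2, the osteoblast transcription factor, at 12.2, 17.2 and 17.4 CPM against 44.8, 35.4 and 32.8 CPM (-1.27 ± 0.36, edgeR adjusted p = 0.0417). Ei24 missed the threshold without combination libraries 1 or 3 or control libraries 1 or 2 (adjusted p = 0.0700, 0.0883, 0.0601 and 0.0522), and Runx2 in all 6 fits (from 0.0642 to 0.0940).

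**Figure D4:**
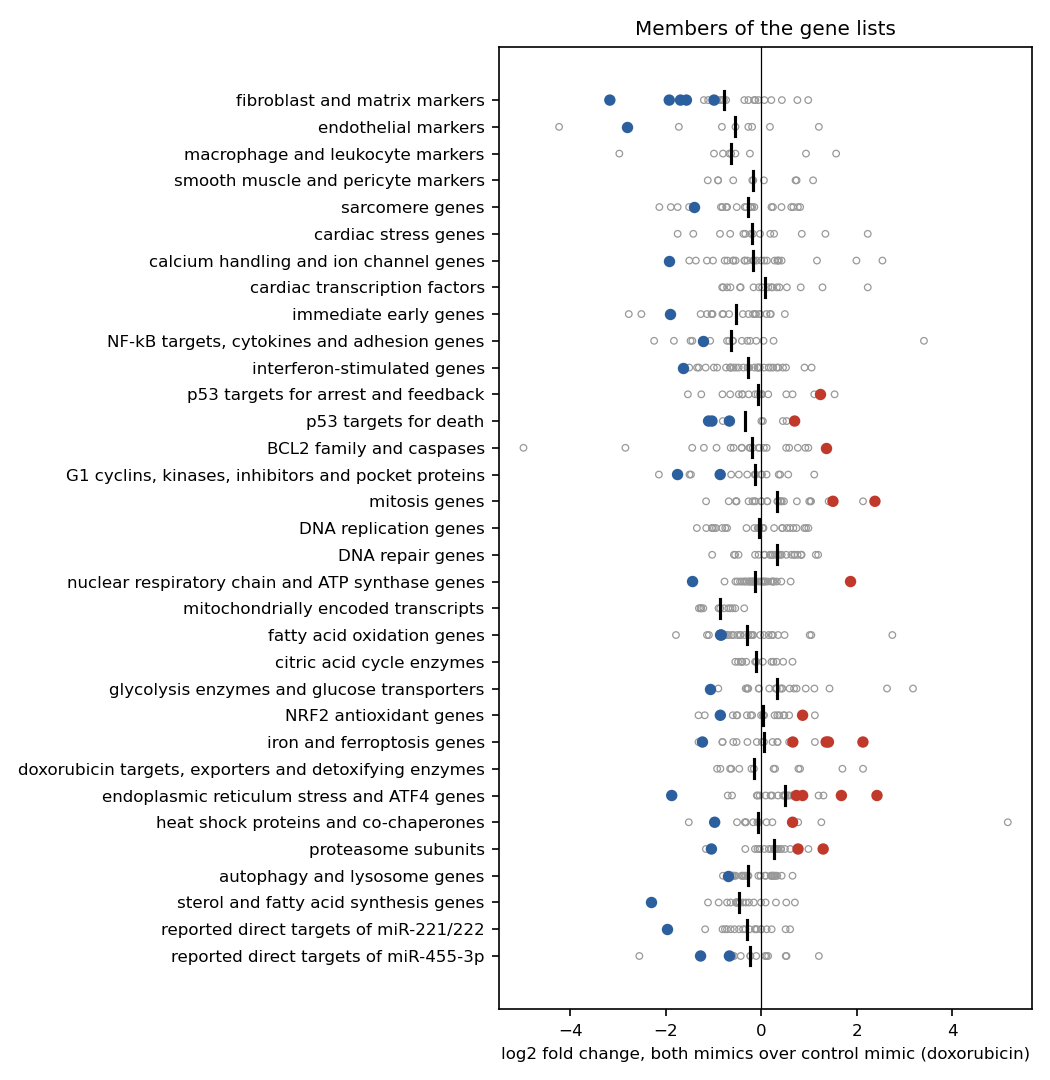
Log2 fold change of both mimics against the control mimic under doxorubicin for the members of the gene lists shown; 1 point per gene, filled where called (edgeR adjusted p under 0.05), with a black bar at the list median. The fibroblast and matrix list lies lowest among the cell type lists, with a median of -0.78, and the endoplasmic reticulum stress list has the highest, 0.49.

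To ask how the combination related to the response to doxorubicin, that response was taken from the single-mimic groups, which share no library with the 6 compared. Doxorubicin raised 7.76% and lowered 6.87% of tested genes with miR-222 alone, and raised 9.02% and lowered 9.11% with miR-455 alone. In both of those groups 539 genes were raised and 553 lowered at least 2-fold. Of the raised genes, 46 (8.53%) were lower with both mimics than with the control mimic and 11 (2.04%) were higher, against 2.78% of all genes each way. Of the 539, 412 had negative changes, with a median of -0.40. Of the genes that doxorubicin lowered, 20 (3.62%) were higher and 19 (3.44%) lower, with a median of 0.02. Without both doubted libraries 25 of the raised genes were lower (4.64%, against 2.15% of all genes) and 10 higher, with a median of -0.30. The lowered genes then had 36 lower (6.51%) and 8 higher and a median of -0.27, so that both lists had a negative median. Without combination library 2 alone, 25 of the raised genes were lower and 10 higher, and 34 of the lowered genes were lower and 10 higher. The raised genes had 25 lower and 5 higher without combination library 3, 29 and 5 without control library 2, and 33 and 7 without control library 3. The lowered genes had 42 higher and 21 lower without combination library 1, and 21 and 12 without combination library 3. Without control libraries 1 to 3 they had 16 higher and 25 lower, 11 and 15, and 14 and 18. Over all genes, 593 were called higher and 587 lower without combination library 1, 231 and 307 without 2, and 278 and 231 without 3. For control libraries 1 to 3 left out, the all-gene counts were 493 and 508, 205 and 258, and 265 and 313.

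The 46 genes ranged widely in kind, and those named here were chosen after their values were seen. Beside Ackr4, Ccnd1, Irf7 and Vnn1 they held the peroxiredoxins Prdx4 (-1.26 ± 0.16) and Prdx3 (-0.93 ± 0.19), which reduce peroxides. They also held the calcium-binding protein S100a4 (-1.10 ± 0.25) and the phosphatase Dusp6, which switches off ERK (-2.12 ± 0.42). These 4 kept their call in each of the 6 fits without 1 library. Fst (follistatin), which binds activin and myostatin, was lower (-1.56 ± 0.42) but lost without combination library 2 or 3 or control library 2 or 3 (edgeR adjusted p = 0.146, 0.0571, 0.149 and 0.0679). Irf7 shows the size of such a change. It was at 2.13, 2.50 and 2.10 CPM with the control mimic without doxorubicin, at 35.7, 36.3 and 42.0 CPM with it, and at 14.7, 8.09 and 13.8 CPM with doxorubicin and both mimics, which is still above every untreated control. The 11 higher genes held Fech, Canx and Me1, and Galc, a lysosomal galactosidase, with 2.92 ± 0.41.

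**Figure D5:**
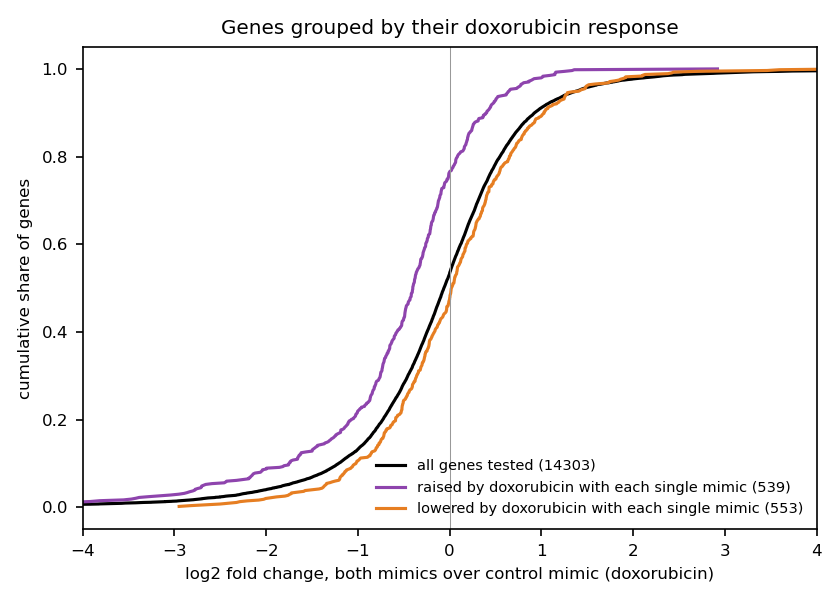
Cumulative share of genes (y axis) by log2 fold change of both mimics against the control mimic under doxorubicin (x axis), for all 14303 tested genes, the 539 raised and the 553 lowered by doxorubicin in the single-mimic groups. The raised genes lie to the left of all genes, with a median of -0.40 against -0.06, and the lowered genes near them, with a median of 0.02.

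Without doxorubicin the same contrast, in libraries shared with neither group above, gave 525 higher and 485 lower genes of 14303 tested (7.06%). It called 99 of the 397 genes raised under doxorubicin in the same direction (24.9% of those 397 and 18.9% of the 525) and 148 of the 397 lowered (37.3%, and 30.5% of the 485). Same-signed changes without doxorubicin were found in 350 of the raised genes (88.2%) and 335 of the lowered (84.4%). The same-signed share over all tested genes was not computed, so how far these shares exceed it is not known. Called in opposite directions were 2 genes, the adrenergic receptor Adra1d (-2.03 ± 0.57 with and 2.61 ± 0.53 without doxorubicin) and the potassium channel Kcnc4 (-3.61 ± 1.02 and 4.65 ± 1.21). Kcnc4 was at 0.214, 0 and 0.293 CPM against 4.34, 1.44 and 0.746 CPM with doxorubicin. Without it the levels were 0.698, 0.521 and 0.229 CPM against 0, 0.0397 and 0 CPM. The sizes fitted for Kcnc4 thus depend on how 0 counts are treated. It lies outside the naming rule and was lost in each fit without 1 library but control library 3 (edgeR adjusted p from 0.0671 to 0.119). Adra1d under doxorubicin missed the threshold without any 1 combination library (edgeR adjusted p = 0.0851, 0.0794 and 0.112) or control library 2 (0.322, change -1.11). The count without doxorubicin moved to 267, 284 and 2718 without combination libraries 1 to 3, and to 583 and 509 without control libraries 1 and 2, all untreated. These untreated libraries were uneven. Mitochondrially encoded transcripts took 8.16%, 6.82% and 24.9% of counts in the combination and 20.3%, 13.5% and 9.11% in the controls. The 15 hypoxia genes summed to 4542, 4635 and 1295 CPM against 1053, 857 and 3029 CPM. Under doxorubicin these sums were uneven too, at 1637, 2834 and 1666 CPM in the combination against 3621, 1240 and 2974 CPM in the controls. What part such unevenness has in the contrast with or without doxorubicin was not tested.

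The test of the difference itself, the effect with minus the effect without doxorubicin, called 8 genes (0.0559%), 7 lower and 1 higher. Hccs was among them: it fell more with doxorubicin than without (-1.11 ± 0.21), by -1.75 ± 0.30 (edgeR adjusted p = 0.0318), from 70.9, 60.4 and 56.8 CPM to 27.8, 28.6 and 30.5 CPM in untreated cells. Nap1l4, a histone chaperone, was at 45.3, 44.3 and 39.3 CPM against 179, 176 and 155 CPM with doxorubicin (-1.98 ± 0.18) and 62.3, 68.0 and 89.4 CPM against 126, 94.4 and 97.5 CPM without. Arl2bp, which binds a small GTPase, was at 56.6, 42.8 and 58.1 CPM against 177, 174 and 169 CPM with doxorubicin (-1.72 ± 0.15) and 53.2, 53.4 and 50.7 CPM against 74.8, 73.0 and 80.2 CPM without. In both genes every doxorubicin-treated control lay above every untreated control, while the combination under doxorubicin lay below the untreated combination (Nap1l4) or overlapped it (Arl2bp). Dkk3 had a difference of -1.81 ± 0.36 that did not pass (edgeR adjusted p = 0.0627), with 28.8, 31.2 and 16.9 CPM against 93.9, 124 and 178 CPM in untreated cells. The count of 8 became 0 (edgeR) without combination library 3 under doxorubicin, without untreated combination libraries 1 or 2, or without untreated control libraries 1 or 2, with 1313 to 1747 genes at an unadjusted p under 0.05. It was 31 without combination library 1, 16, 2 and 1 without control libraries 1 to 3 under doxorubicin, and 894 without untreated combination library 3.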

How the data were processed

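PolyA RNA libraries of 24 samples were used. The table that the authors deposited holds expected counts for 21767 gene symbols, produced, per the submitters' processing notes, with Salmon and DESeq2 on rat build Rnor_6.0. The role of each tool and the filter named in the table's title are not stated in the labels. Values that were not whole (7.35%) were rounded, and 3087 symbols were at 0 throughout. Tests used edgeR 4.0.16 under R 4.3.3. Genes were filtered with filterByExpr, which left 14303, and libraries were scaled by TMM. Each of the 8 groups had its own mean, all 24 libraries shared 1 estimate of spread, and contrasts were tested by quasi-likelihood. Adjustment was by Benjamini-Hochberg over all tested genes, with a threshold of 0.05. Standard errors were taken from the root of F. Totals of 17311955 counts or more leave genes of a few CPM the least precise.

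Groups come from the labels. Replicate numbers served as names, because same-numbered libraries of the combination and the control mimic under doxorubicin did not deviate together. Some same-numbered libraries with and without doxorubicin did, such as control library 1 (correlation 0.42) and combination library 1 (0.45). Others did not, such as combination library 2 (-0.23). The check under doxorubicin therefore does not settle pairing in the test of the effect with minus without doxorubicin. The libraries compared, the 35 gene lists (737 genes, 691 tested) and the naming rule were chosen with earlier results of these data known. For the main comparison the rule names the 10 most raised and 10 most lowered called genes that have a symbol, reach 5 CPM in the higher group and do not overlap between groups. From every list it takes the 4 smallest p-values, from the target lists all called members, and from each other comparison up to 5 genes a direction, together with a few fixed genes. Alternatives were other scalings and filters, DESeq2 1.42.0, limma 3.58.1 with quality weights, fits of the compared groups alone, a replicate block and fits without single libraries. MicroRNA sequences come from RefSeq on GRCr8, and no coordinate was carried between builds. Seed matches in 3′ UTRs were not analysed here.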

Additional observations from a re-analysis of the deposited data

Results flagged for a closer look

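The 8 genes called for the interaction were singled out because the effect of both mimics differed with and without doxorubicin by the test of that difference (edgeR, Benjamini-Hochberg adjusted p under 0.05). Hccs was lowered more under doxorubicin, a log2 difference of -1.75, and so were Nap1l4 (-1.45 ± 0.25, adjusted p = 0.0318) and Arl2bp (-1.19 ± 0.21, adjusted p = 0.0379), whose levels stand in the report. The unnamed LOC306766 was at 55.9, 38.2 and 45.8 CPM with both mimics against 180.3, 176 and 169.7 CPM with the control mimic under doxorubicin, and at 38.5, 32.7 and 30.8 CPM against 44.3, 43.4 and 55.7 CPM without it, a difference of -1.42 ± 0.24. RGD1310352 was at 54.7, 47.5 and 55.2 CPM against 379, 414 and 348 CPM with doxorubicin and 37.2, 39.4 and 40.8 CPM against 122, 108 and 128 CPM without, a difference of -1.25 ± 0.21. In both genes each library with both mimics lay below each control of its setting.

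The other 3 were Nedd9, Adra1d and Slc4a1. Nedd9, a scaffold of focal adhesions, was higher with both mimics under doxorubicin, at 37.0, 39.1 and 45.9 CPM against 21.7, 19.9 and 12.7 CPM, while the groups overlapped without it, at 32.2, 25.5 and 44.9 CPM against 57.1, 44.5 and 56.4 CPM, a difference of 1.79 ± 0.33 (edgeR adjusted p = 0.0492). Adra1d was at 0.470, 0.746 and 0.586 CPM against 1.01, 4.64 and 1.55 CPM with doxorubicin and 22.4, 24.4 and 14.1 CPM against 1.15, 3.09 and 5.76 CPM without, a difference of -4.63 ± 0.78. Slc4a1, the band 3 anion exchanger, was at 1.92, 0.995 and 2.17 CPM against 0, 2.94 and 1.99 CPM with doxorubicin and 6.56, 5.06 and 1.05 CPM against 0, 0 and 0 CPM without; its fitted difference of -9.51 depends on how 0 counts are treated and has no size of its own.

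In 6 genes the change with both mimics under doxorubicin differed from the sum of the single-mimic log2 changes by the same kind of test. Gca (above the sum by 3.27), Vnn1 (2.15) and Bckdk (1.20 ± 0.19, edgeR adjusted p = 0.0173) are described in the report. Sqor, which oxidises sulfide in mitochondria, was at 22.4, 47.9 and 30.5 CPM with both, 46.3, 36.1 and 34.9 CPM with miR-222, 6.31, 7.38 and 4.30 CPM with miR-455 and 34.0, 42.0 and 26.2 CPM in controls, above the sum by 2.29 ± 0.41. The low values of miR-455 alone were thus not seen with both. Tmem183a was at 55.7, 90.8 and 66.4 CPM with both, 67.0, 77.0 and 63.3 CPM with miR-222, 35.3, 35.2 and 35.3 CPM with miR-455 and 109.8, 95.8 and 82.5 CPM in controls, above the sum by 1.48 ± 0.25. Cmas, which activates sialic acid, was at 17.4, 15.9 and 14.8 CPM with both, 47.3, 69.3 and 55.4 CPM with miR-222, 15.7, 18.4 and 16.1 CPM with miR-455 and 15.8, 19.1 and 13.5 CPM in controls, off the sum by -1.89 ± 0.30. Here the high values of miR-222 alone were not seen with both.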

How the results depend on the processing

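The counts of called genes are given here in the order: both mimics against the control mimic, against miR-222 and against miR-455 under doxorubicin, both beyond the sum, both against the control mimic without doxorubicin, and the effect with minus without doxorubicin. They were 794, 23, 355, 6, 1010 and 8. The DESeq2 test gave 1521, 141, 992, 175, 1871 and 368, and limma voom with quality weights 3444, 2238, 3791, 651, 9150 and 6782. A fit of only the groups compared gave 2, 0, 94, 0, 0 and 0 (edgeR; for the counts of 0, 1378, 1674, 1889 and 863 genes had an unadjusted p under 0.05). Without the 4 libraries with the fewest genes, which leaves 2 libraries in each of the 4 groups they come from, the counts were 1873, 91, 779, 35, 3714 and 1589. With no filter they were 15 against miR-222, 0 beyond the sum and 0 for the difference (edgeR; 1792 and 2164 at an unadjusted p under 0.05 for the latter), and 1 CPM in 3 libraries gave 13 beyond the sum and 13 for the difference. Scaling without mitochondrially encoded genes gave 13 beyond the sum, and for the difference 3 higher and 7 lower, where DESeq2 size factors gave 0 and 7 and TMM 1 and 7. Without both doubted libraries, a setting chosen after seeing the data, the counts were 13 against miR-222, 220 against miR-455, 1 beyond the sum and 15 for the difference. Leaving out 1 library gave 463 to 1180, 3 to 38, 108 to 1039, 0 to 24, 267 to 2718 and 0 to 894. The cause of these differences was not tested.

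Same-numbered libraries of the 2 groups under doxorubicin had correlations of -0.45, -0.19 and -0.07 between their deviations, and 0 of 6 correlated best with its own number, so the numbers do not pair these 2 groups. Some libraries with unlike numbers did deviate together. Combination library 1 and control library 3 correlated at 0.42 under doxorubicin. In untreated cells the correlation was 0.56 for combination library 2 and control library 3, and 0.55 for combination library 3 and control library 1. Like numbers also went together in part. Controls with and without doxorubicin correlated at 0.42, 0.07 and 0.37 for libraries 1 to 3, and combination libraries at 0.45, -0.23 and 0.20. Untreated combination and control libraries of the same number were at -0.50, 0.02 and -0.58. What these libraries share was not tested. The replicate block gave 609, 8, 242, 1, 712 and 0 calls (for the 0, edgeR, 1748 genes at an unadjusted p under 0.05).

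With no fold minimum the raised list held 787 genes, of which 78 were lower and 31 higher, and the lowered list 718, of which 29 were lower and 34 higher. With a minimum of 4-fold the raised list held 135 genes with 5 lower and 0 higher (edgeR), and the lowered list 226 with 6 lower and 4 higher. Among 178 named genes, 75 of them called, 0 of 2838 values under an alternative reversed in a gene called in either fit. Changes of sign in genes called in neither fit were not counted. Of the 75, the DESeq2 test kept 75, the replicate block 63, the fit without both doubted libraries 50 and the fit of the 6 libraries alone 1. Seed matches were planned and not run.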

Other observations

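Some gene families outside the lists, chosen after their values were seen and so given with no test of the family, held several called members under doxorubicin, where 2.78% of all genes were called in each direction. Of 20 cytosolic aminoacyl-tRNA synthetases, which charge tRNAs for translation, 6 were called higher with both mimics (edgeR), 18 changes were positive and the median was 0.45, beside -0.06 over all genes. Eprs was at 422, 566 and 599 CPM with both mimics against 256, 149 and 190.3 CPM (1.42 ± 0.24), and Sars at 275, 261 and 288 CPM with both mimics against 129, 105 and 123 CPM (1.21 ± 0.19). Iars (1.00 ± 0.21), Mars (0.97 ± 0.20) and Wars (0.86 ± 0.19) also kept their call in each fit without 1 library. Gars (0.85 ± 0.20) missed the threshold without combination library 3 or control library 2 (edgeR adjusted p = 0.0567 and 0.0680). The 17 mitochondrial synthetases had a median of 0.11. Mitochondrial ribosomal proteins had 9 of 75 higher and 2 lower (Mrpl36, -1.75 ± 0.36, and Mrpl18, -1.44 ± 0.30), with 53 positive and a median of 0.24. Of the 9, Mrpl15 missed the threshold without combination library 2, control library 1 or control library 2 (edgeR adjusted p = 0.106, 0.0588 and 0.0857), Mrpl30 without combination library 2, control library 2 or control library 3 (0.0612, 0.0564 and 0.0501), and Mrpl47 without combination library 2 or control library 2 (0.0789 and 0.0596).

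All 6 tested collagen IV chains of basement membrane had negative changes, with a median of -1.29; Col4a4 was at 201, 238 and 161 CPM with both mimics against 1003, 1335 and 897 CPM (-2.43 ± 0.20), and Col4a3 (-1.29 ± 0.28) was lost without control library 2 (adjusted p = 0.0689). Of 35 complex I subunits 3 were higher (Ndufb9, 1.96 ± 0.31, Ndufv2 and Ndufc1, 1.46 ± 0.27) and 1 lower (Ndufb2, -1.80 ± 0.36), with a median of 0.04, beside 2.78% called each way and a median of -0.06 over all genes.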
